A study of Mus musculus with 74 samples.

Results

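The comparison set 2 small intestine libraries labelled as deleted for Cdx2 at E13 (embryonic day 13) against 2 wild-type small intestine libraries, all 4 labelled E16. They were taken by their column names from 1 table of RNA-seq read counts and are 4 of the 74 samples of the series, of which 31 are RNA-seq libraries. The embryos labelled deleted were of genotype Cdx2f/f; Villin-Cre on a B6;129 mixed background, and tamoxifen, the drug that switches on the inducible Cre, was given as 1 oral gavage of 5 mg. The controls were untreated CD1 wild-type embryos, so strain, tamoxifen and the deletion differ together between the groups and cannot be told apart. Villin-Cre acts in cells in which the villin promoter is on, that is, in gut epithelium. For all 4 libraries the intestine was dissociated with trypsin, Epcam-positive cells were sorted and RNA was amplified with a low-input kit, per the labels. Nothing in the labels says that replicates came from separate animals or litters, so p-values measure the spread between these libraries, which may be technical.

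Other libraries served as landmarks: untreated CD1 wild-type small intestine at E18 (2 libraries), small intestine at E18 labelled deleted at E15 in the same Cdx2f/f; Villin-Cre line with the same 5 mg of tamoxifen (2 libraries), untreated small intestine at E16 labelled deleted at E10 in Cdx2f/f; Shh-Cre embryos of the same mixed background (3 libraries), and adult ileum villi. The adult villi came from Cdx2f/f mice without Cre given oil (2 libraries) and from Cdx2f/f; Villin-Cre mice given 1 mg of tamoxifen on each of 5 days (2 libraries). At E18 and in adults the epithelium was released with EDTA, per the labels, and adult RNA went through a different library kit, so level differences across these groups also carry preparation.

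Cdx2 is a homeodomain transcription factor that sets intestinal identity in the gut endoderm and later helps to maintain enterocyte genes. Where it is lost early, genes of the stomach and of stratified foregut epithelium are known to appear in the intestine, and loss at later times is known to affect mainly digestive and absorptive genes. At these stages the mouse intestine forms its first villi, and the enterocyte program of the suckling period, with lactase as its best known enzyme, comes before the sucrase-rich program of weaning.

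The libraries labelled deleted at E13 did not have lower levels of the targeted gene, and they stood apart from their stage. Total counts were 33756871 and 31250161 in these libraries and 18306362 and 16685602 in the wild type at E16. Cdx2 was at 197 and 202 CPM (counts scaled to a common library size) in the libraries labelled deleted at E13 and at 184 and 204 CPM in the E16 wild type, with overlapping groups, a log2 change of 0.05 ± 0.28 SE and an adjusted p of 0.905 by edgeR. Cdx2 was at 14 to 26.7 CPM with the E10 label, whose libraries carry the same Cdx2f/f genotype, and at 343 to 359 CPM in those labelled deleted at E15, whose E18 wild type had 186 to 193 CPM. In adult villi Cdx2 was at 698 to 729 CPM with the deletion label and 340 to 346 CPM in the wild type. In none of the 3 comparisons of a Villin-Cre tamoxifen group with its wild type was Cdx2 called lower. Whether the E13, E15 and E18 libraries carry the right labels was not tested. The counts are per gene, so they do not show which part of the transcript was read. RNA that lacks only a deleted part could still be counted, so these levels do not show whether the deletion took place. The 2 libraries labelled deleted at E13 were also unusually alike: over 14319 genes the chi-square of their counts per degree of freedom was 2.4, against 9.19 for the E16 wild-type pair, which is more than sampling noise but less than in any other pair except the E18 wild type at 1.5. Directions below are therefore those of libraries with this label, not of a loss of Cdx2 shown in them.

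By overall profile the libraries labelled deleted at E13 lay nearer to E18 and adult epithelium than to their labelled stage. Their Spearman correlation, across 17305 genes and averaged over library pairs, was 0.957 with the libraries labelled deleted at E15, 0.935 with adult villi labelled deleted, 0.933 with the E18 wild type, 0.92 with adult wild-type villi and 0.841 with the E16 wild type. It was 0.763 with the libraries labelled deleted at E10, 0.737 with E16 hindstomach, the glandular stomach, and 0.635 with E16 forestomach, the squamous part. Genes are not independent replicates and the pairs share libraries, so these values are descriptions. The first principal component over the 1000 most variable genes, which held 66% of their variance, placed these libraries at 112 and 112 (in its own units), between the E16 wild type at 14.4 and 13.9 and the E18 wild type at 141 and 140, with those labelled deleted at E15 at 130 and 130.

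**Figure D1:**
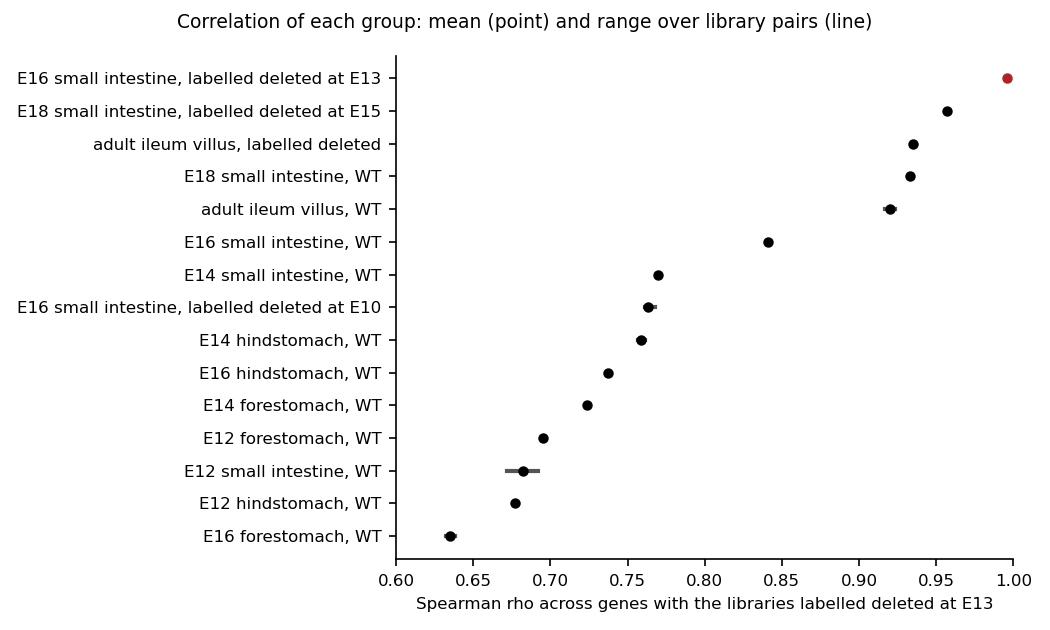
Spearman rho across genes of each group of libraries with those labelled deleted at E13, with the mean as a point and the range over library pairs as a line. The E18 and adult groups sit at 0.92 to 0.957 and the E16 wild-type intestine at 0.841.

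Sex-linked genes, chosen after their values were seen, also separated the groups. Xist, the RNA of the inactive X chromosome, was at 40.1 and 49 CPM in the E16 wild type and at 781 and 753 CPM in the libraries labelled deleted at E13. The Y-linked Ddx3y was at 13 and 14.7 CPM in the wild type and had 0 counts in both libraries labelled deleted at E13, as did Eif2s3y, Kdm5d and Uty. Against the E18 wild type the split was wider, with 0.153 to 0.154 CPM of Xist and 80.8 to 89.1 CPM of Ddx3y there, and the libraries labelled deleted at E15 had 0.143 to 0.212 CPM of Xist and 71 to 80.1 CPM of Ddx3y. These genes thus differed between the groups in both comparisons, and the part of sex composition in the results was not tested.

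Of 17239 genes tested, 6807 (39.5%) passed an edgeR adjusted p below 0.05 with a log2 fold change of at least 1, and these are referred to as called. The calls were split into 3225 higher (18.7%) and 3582 lower (20.8%) in the libraries labelled deleted at E13, and the median log2 fold change over all genes tested was -0.05. Every count of a gene list below is to be read against these shares. In simulated libraries of the same design 40 of 100 genes changed 2-fold and 53 of 100 changed 4-fold were recovered, so a gene not called here is not shown to be unchanged. The libraries labelled deleted at E13 spent more of their counts on few genes: the 10 most abundant held 10.9% and 11.1% of counts, against 3.82% and 3.72% in the wild type. The most abundant was Akp3, with 3.6% and 3.77% of all counts.

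**Figure D2:**
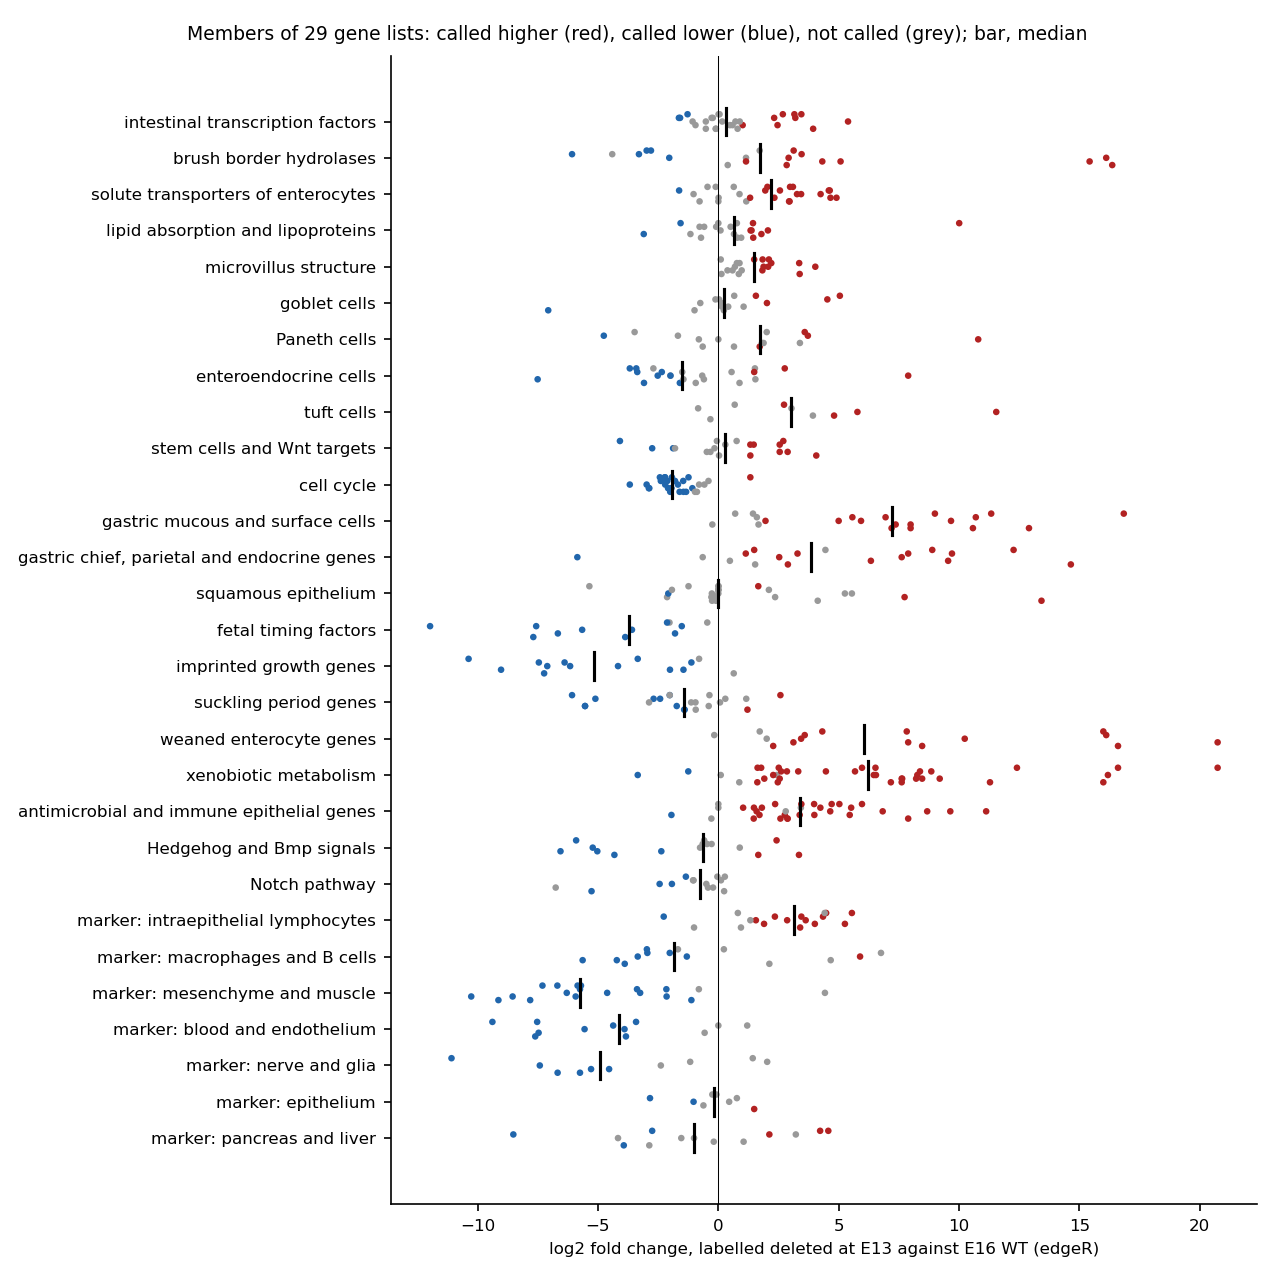
Log2 fold change (edgeR) of each tested member of 29 gene lists, libraries labelled deleted at E13 against E16 wild type, with red for called higher, blue for called lower, grey for not called and a black bar at the list median. Gastric, xenobiotic and weaned enterocyte lists have medians of 3.87 to 7.20, and fetal timing and imprinted lists medians of -3.73 and -5.16.

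Digestive enzymes of the enterocyte brush border moved in both directions. Of 19 tested, 10 were called higher, 5 lower and 4 were not called, with a median log2 fold change of 1.72 (3 lower with DESeq2), and their summed share of counts was 0.37% to 0.394% in the wild type and 5.64% to 5.87% with the E13 label. The intestinal alkaline phosphatases held most of the share with the E13 label, Akp3 with 3.6% and 3.77% of counts and Alpi with 1.53% and 1.6%. Akp3, which dephosphorylates lipids and bacterial products at the microvillus, was at 0.567 and 0.563 CPM in the wild type and at 46700 and 48900 CPM in the libraries labelled deleted at E13. Its log2 fold change was 16.37 (SE 0.71, adjusted p = 1.74e-09 by edgeR). Its neighbour and close paralog Alpi was at 634 and 577 CPM in the wild type and at 19800 and 20700 CPM in the libraries labelled deleted at E13, with a log2 fold change of 5.08 (SE 0.58, adjusted p = 1.09e-06 by edgeR). The groups did not overlap for either gene, and reads shared between these paralogs may have been split between them. Akp3 was at 273 to 279 CPM in the E18 wild type and 2340 to 2510 CPM with the E15 label, so its level with the E13 label was the highest of the intestinal groups shown.

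Disaccharidases diverged. Mgam, the maltase-glucoamylase, was at 103 and 83.4 CPM in the wild type and 1880 and 1810 CPM with the E13 label (log2 change 4.32 ± 0.55 SE, adjusted p = 2.01e-06 by edgeR). Treh, which splits trehalose, had 0 counts in both wild-type libraries and 344 and 341 CPM in the libraries labelled deleted at E13, at least 2320-fold higher against a floor of 3 counts per library. Both enzymes were thus apart between the groups, and both were higher again in the E18 wild type. Sis, the sucrase-isomaltase of weaned intestine, was at 6.71 and 6.4 CPM in the wild type and at 23 and 19.8 CPM with the E13 label, without overlap but short of a call (log2 change 1.72 ± 1.07 SE, adjusted p = 0.197 by edgeR). It was called in an edgeR fit with the replicate number as a block (adjusted p = 0.00329) and in one of these 4 libraries alone (adjusted p = 6.91e-05), with like fold changes. Both values were far under the 8540 to 8670 CPM of the E18 wild type and the 6410 to 7990 CPM of adult wild-type villi. Lct, the lactase of milk digestion, was at 453 and 397 CPM in the wild type and at 5.88 and 6.55 CPM with the E13 label. It fell by 6.08 on the log2 scale (SE 0.37, adjusted p = 2.82e-10 by edgeR), and the E18 wild type had 4580 to 4600 CPM.

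Peptidases of the brush border split. The 2 meprin subunits, which form a secreted and membrane-bound metalloprotease, were called in opposite directions: Mep1a was at 116 and 132 CPM in the wild type and 15.6 CPM in both libraries with the E13 label, and Mep1b at 65 and 58.2 CPM against 689 and 656 CPM. Dpp4, which trims dipeptides, was at 322 and 307 CPM in the wild type and at 45 and 44.5 CPM with the E13 label (log2 change -2.80 ± 0.30 SE, adjusted p = 2.09e-07 by edgeR). Enpep, an aminopeptidase for acidic residues, went from 411 and 410 CPM to 43.2 and 39.4 CPM (log2 change -3.30 ± 0.33 SE, adjusted p = 9.49e-08 by edgeR). Anpep, the abundant aminopeptidase N, was at 396 and 334 CPM in the wild type and at 475 and 470 CPM with the E13 label, which was not called, and at 11800 to 12300 CPM in the E18 wild type. Tmprss15, the enteropeptidase of the duodenum that activates trypsinogen, had 0 counts in the wild type and 219 and 206 CPM with the E13 label, at least 1440-fold higher.

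To set the sequences of the 2 phosphatase genes, of Sis and of the gastric gene Gkn1 beside these levels, their promoters were read from RefSeq (GRCm38.p6), from 250 bases before to 50 bases after the gene start, in the direction of the gene. Capitals mark the letters TTTATNG, a form of the Cdx-type motif, searched on both strands; of 32851 mouse promoters of this length, 3584 (10.9%) hold it. Akp3 and Alpi were added after their values were seen.
Sis, chr3:72967814-72968113, minus strand: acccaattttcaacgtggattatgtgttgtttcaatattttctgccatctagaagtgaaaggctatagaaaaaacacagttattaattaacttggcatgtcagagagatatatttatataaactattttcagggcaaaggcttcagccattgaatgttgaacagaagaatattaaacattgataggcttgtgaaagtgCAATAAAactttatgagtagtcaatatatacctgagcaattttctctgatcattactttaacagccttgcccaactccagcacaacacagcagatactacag
Alpi, chr1:87101557-87101856, minus strand: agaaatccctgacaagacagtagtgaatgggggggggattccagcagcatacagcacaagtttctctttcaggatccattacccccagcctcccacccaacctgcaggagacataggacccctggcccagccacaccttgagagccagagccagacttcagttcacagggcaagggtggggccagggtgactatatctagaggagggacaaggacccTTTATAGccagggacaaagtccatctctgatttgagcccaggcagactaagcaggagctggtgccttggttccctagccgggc
Akp3, chr1:87124704-87125003, plus strand: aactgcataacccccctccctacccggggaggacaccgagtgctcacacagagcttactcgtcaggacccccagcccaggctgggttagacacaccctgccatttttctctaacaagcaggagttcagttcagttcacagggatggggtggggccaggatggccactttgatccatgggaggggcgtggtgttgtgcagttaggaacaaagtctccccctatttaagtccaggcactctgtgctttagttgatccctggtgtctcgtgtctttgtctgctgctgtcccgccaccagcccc
Gkn1, chr6:87350866-87351165, minus strand: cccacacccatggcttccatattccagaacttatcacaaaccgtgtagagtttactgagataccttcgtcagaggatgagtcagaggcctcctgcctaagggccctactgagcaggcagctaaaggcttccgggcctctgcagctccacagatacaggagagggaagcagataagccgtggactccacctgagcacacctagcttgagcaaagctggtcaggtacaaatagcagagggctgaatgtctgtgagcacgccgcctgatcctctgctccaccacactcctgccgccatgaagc
The Sis window held 1 match, on the opposite strand and so written CAATAAA, whose first base lies 52 bases before the start. The Alpi window held 1 match on the gene's own strand, 33 bases before the start. The letters TATAAA were searched on the gene's own strand only, where neither match overlapped them. On the opposite strand the Alpi match reads CTATAAA and so holds TATAAA, and it is not shown to be distinct from a TATA sequence. The Akp3 and Gkn1 windows held 0 matches, which says only that these letters are not in these windows. Whether the letters bear on the levels was not tested, since the 2 phosphatase genes were added after their values were seen and binding was not examined.

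Genes of nutrient and ion transport were mostly higher. Of 26 solute transporters tested, 16 were called higher, 1 lower and 9 were not called, with a median of 2.19. Slc5a1, the sodium-glucose cotransporter, was at 396 and 397 CPM in the wild type and at 1620 and 1610 CPM with the E13 label (log2 change 2.04 ± 0.65 SE, adjusted p = 0.0125 by edgeR), a call lost with DESeq2 (adjusted p = 0.102) and without either wild-type library (edgeR adjusted p = 0.0729 and 0.0727). Slc2a2, the basolateral sugar exit channel, was at 16.4 and 21.6 CPM against 480 and 452 CPM (log2 change 4.63 ± 0.51 SE, adjusted p = 3.06e-07 by edgeR). Slc15a1, which takes up short peptides, was at 5.19 and 3.43 CPM against 129 and 129 CPM (log2 change 4.91 ± 0.51 SE, adjusted p = 1.65e-07 by edgeR). All 3 lay between the E16 and E18 wild types, the latter at 6390, 993 to 998 and 711 to 722 CPM in that order. Slc26a3, a chloride-bicarbonate exchanger, went past the E18 wild type: it was at 78.1 and 64.5 CPM in the E16 wild type, 1750 and 1660 CPM with the E13 label and 389 to 390 CPM in the E18 wild type.

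Lipid handling genes were called about as often as all genes. Of 21 tested genes 7 were called higher, 2 lower and 12 were not called, with a median of 0.65. Apoa1, the main apolipoprotein of high-density lipoprotein, was at 2380 and 2290 CPM in the wild type and 2260 and 2390 CPM with the E13 label, and the groups overlapped. Apob, the structural protein of chylomicrons, was at 900 and 754 CPM against 3470 and 3350 CPM (log2 change 2.06 ± 0.34 SE, adjusted p = 4.29e-05 by edgeR). Cd36, a fatty acid receptor, was at 55.3 and 83.2 CPM against 8.6 and 7.38 CPM (log2 change -3.10 ± 0.61 SE, adjusted p = 0.000283 by edgeR). The list therefore held called genes in both directions.

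Structural genes of the microvillus were called higher in 10 of 19 and lower in 0, with a median of 1.49. Vil1, which bundles actin in the microvillus core and whose promoter drives the Cre, was at 504 and 526 CPM in the wild type and at 1840 and 1810 CPM with the E13 label (log2 change 1.84 ± 0.25 SE, adjusted p = 5.25e-06 by edgeR). Cdhr2, a protocadherin that links microvillus tips, was at 329 and 296 CPM against 3200 and 3240 CPM (log2 change 3.38 ± 0.33 SE, adjusted p = 9.39e-08 by edgeR). Krt20, a keratin of differentiated villus cells, was at 101 and 102 CPM against 1660 and 1620 CPM (log2 change 4.03 ± 0.34 SE, adjusted p = 9.02e-09 by edgeR). All 3 groups of values were apart, and Cdhr2 was near its E18 wild-type level of 3510 to 3550 CPM.

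**Figure D3:**
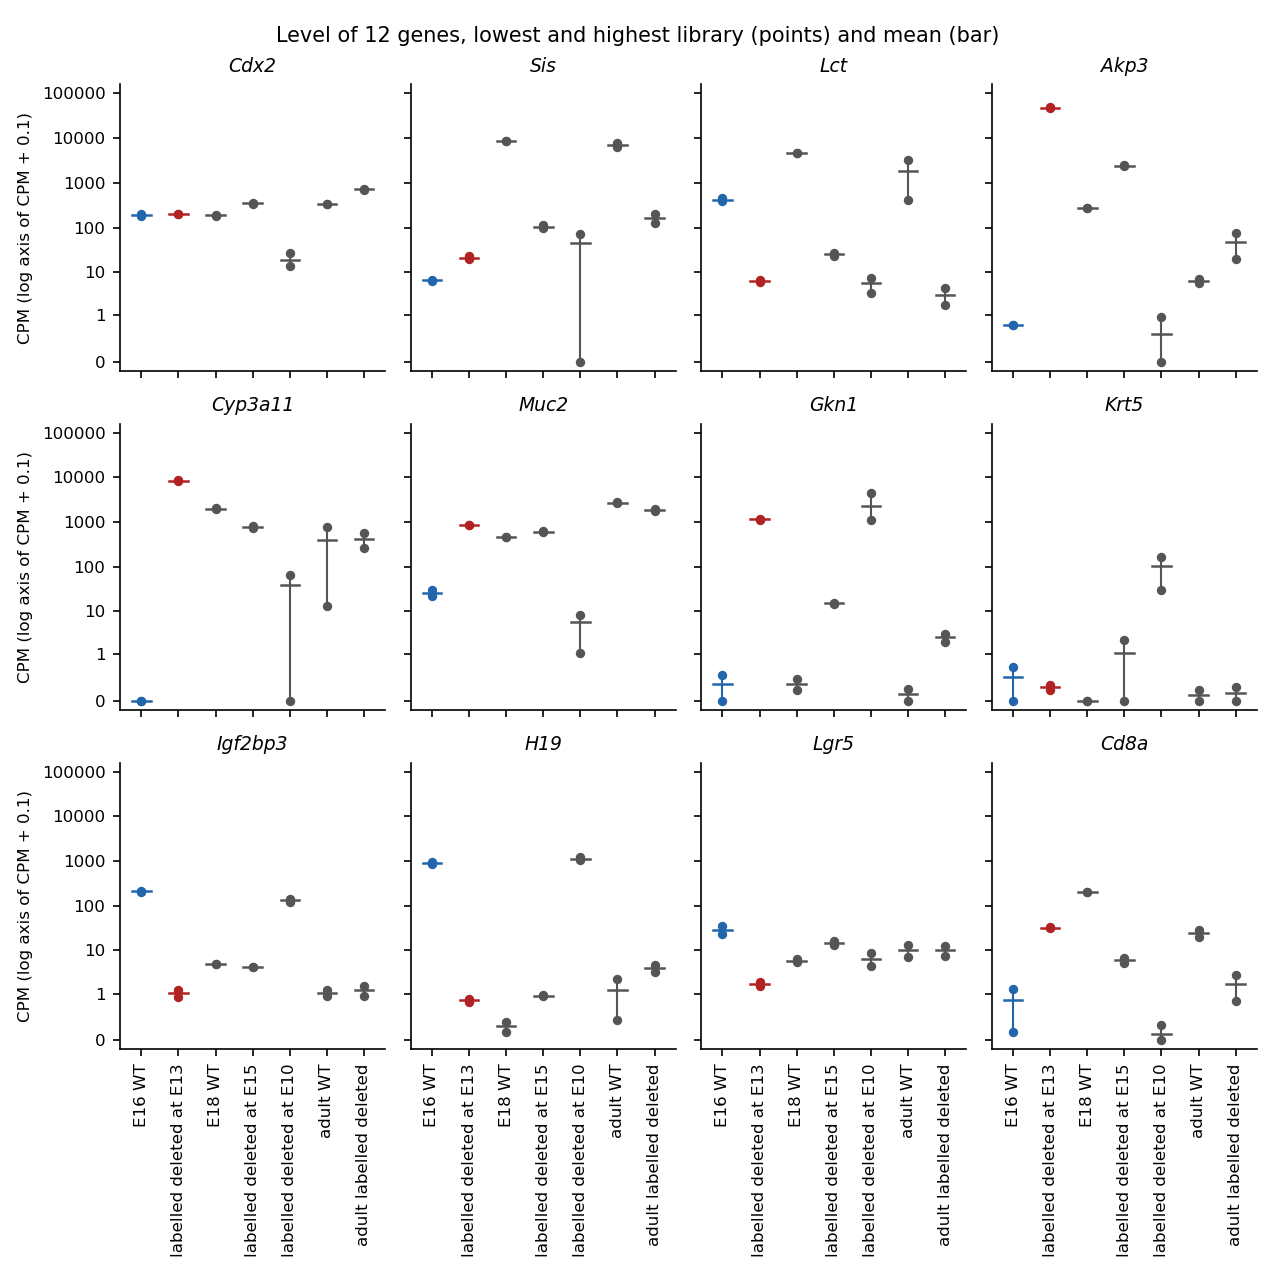
Level of 12 genes in CPM on a log axis of CPM plus 0.1, for 7 intestinal groups, with the lowest and the highest library as points and the mean as a bar. The libraries labelled deleted at E13 (red) match the E16 wild type (blue) in Cdx2 and are apart from it in Akp3, Cyp3a11, Gkn1, Igf2bp3 and H19.

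Transcription factors of the intestine were called about as often as all genes, of which 39.5% were called. Of 28 tested, 9 were called higher, 3 lower and 16 were not called, with a median of 0.32. Cdx1, the paralog of Cdx2, was called lower, at 304 and 281 CPM in the wild type and 93.6 and 98.6 CPM with the E13 label (log2 change -1.59 ± 0.52 SE, adjusted p = 0.0158 by edgeR). The call on Cdx1 was lost with DESeq2 (adjusted p = 0.105), without replicate 1 of the wild type (adjusted p = 0.065) and without replicate 1 or replicate 2 labelled deleted at E13 (adjusted p = 0.0931 and 0.0795 by edgeR). The hepatocyte nuclear factors, which activate enterocyte genes together with Cdx2, were not called: Hnf4a was at 365 and 327 CPM in the wild type and 516 and 514 CPM with the E13 label, and Hnf4g at 278 and 275 CPM against 256 and 256 CPM. Vdr, the vitamin D receptor, was at 20.1 and 16.3 CPM against 751 and 760 CPM (log2 change 5.39 ± 0.48 SE, adjusted p = 2.16e-08 by edgeR). Nr1i2, a nuclear receptor that senses bile acids and drugs, was at 15.4 and 15.8 CPM against 236 and 238 CPM (log2 change 3.94 ± 0.41 SE, adjusted p = 3.72e-07 by edgeR). Klf4, a factor of differentiated and goblet cells, was at 33.4 and 30.2 CPM against 338 and 351 CPM (log2 change 3.45 ± 0.21 SE, adjusted p = 1.62e-10 by edgeR). Against the E18 wild type none of these 3 genes was called.

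Genes that mark the move from suckling to weaned intestine were called in opposite directions as lists. Of 16 tested genes of weaned enterocytes 13 were called higher and 0 lower, with a median of 6.07. Of 22 suckling period genes 2 were called higher, 10 lower and 10 were not called, with a median of -1.41. Thinned to the shallowest library compared, 1 suckling period gene was called higher. The trehalase gene Treh, given above, is among the weaned genes called higher. Ass1, an enzyme of arginine synthesis in suckling enterocytes, was at 125 and 110 CPM against 3.53 and 3.19 CPM (log2 change -5.11 ± 0.35 SE, adjusted p = 5.67e-10 by edgeR). Pck1, an enzyme of glucose synthesis, was at 116 and 94.7 CPM against 2.04 and 2.45 CPM (log2 change -5.54 ± 0.63 SE, adjusted p = 1.04e-06 by edgeR), but at 721 to 727 CPM in the E18 wild type. The weaned list holds Sis, which was not called. It shares Cyp3a11 and Cyp2c29 with the list of drug and steroid metabolism below. Against the E18 wild type 2 of the 16 weaned genes were called higher and 7 lower, with a median of -0.9. The weaned list held 2.63% of counts in the E18 wild type and 1.63% to 1.64% with the E13 label.

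Enzymes of drug and steroid metabolism had the largest share called higher among the 29 lists, with 33 of 38 tested higher, 2 lower and a median of 6.21. Cyp3a11, a cytochrome P450 of drug oxidation, had 0 counts in both wild-type libraries and stood at 8410 and 8540 CPM with the E13 label, at least 57400-fold higher against the floor. The E18 wild type had 1910 to 2010 CPM. Ugt2b38, a glucuronosyltransferase, had 0 counts in the wild type and 221 and 223 CPM with the E13 label, at least 1500-fold higher, and at most 4.24 CPM in the E18, E15 and E10 groups. Cyp2c29 had 0 counts in the wild type, 477 and 485 CPM with the E13 label and 4.2 to 4.67 CPM in the E18 wild type. The calls of Ugt2b38 and Cyp2c29 were lost with DESeq2 (adjusted p = 0.0915 and 0.0675). Members of the Cyp2c, Cyp3a and Ugt2b families are near-identical in places, so their counts are uncertain as to the member. Tamoxifen was given to the embryos labelled deleted and not to the wild type, and its part in these levels cannot be told apart from the label.

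Epithelial immune and antimicrobial genes were called higher in 27 of 33 tested and lower in 1, with a median of 3.38. Pigr, which carries IgA across the epithelium, was at 18.5 and 23.7 CPM in the wild type and at 4960 and 4950 CPM with the E13 label (log2 change 7.89 ± 0.99 SE, adjusted p = 1.69e-06 by edgeR). Reg1, a secreted lectin, was at 15.1 and 17.2 CPM against 6660 and 6440 CPM (log2 change 8.68 ± 1.07 SE, adjusted p = 1.91e-06 by edgeR), with the caution that Reg genes resemble each other. Nlrc5, an activator of MHC class I genes, had 0 counts in the wild type and 11.2 and 10.4 CPM with the E13 label. Reg3g, an antibacterial lectin, was at 5.76 and 2.87 CPM against 47.8 and 44.6 CPM, without overlap and without a call (edgeR adjusted p = 0.0603), though it was called with the replicate block (adjusted p = 7.37e-06).

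Lymphocyte markers were higher as well. Of 18 markers of intraepithelial lymphocytes tested, 12 were called higher and 1 lower, and their summed share of counts was 0.0133% to 0.0141% in the wild type and 0.028% to 0.0284% with the E13 label. Cd8a, the co-receptor of cytotoxic T cells, was at 1.32 and 0.0512 CPM in the wild type, 34 and 31.7 CPM with the E13 label and 203 CPM in both E18 wild-type libraries. Cd3e, a chain of the T cell receptor complex, was at 0.897 and 0.972 CPM, 10.3 and 12.8 CPM, and 61.3 to 61.5 CPM in the same order. Ptprc, the common leukocyte antigen, was not called, at 20.2 and 17.3 CPM in the wild type and 31.9 and 33.1 CPM with the E13 label (log2 change 0.81 ± 0.73 SE, adjusted p = 0.37 by edgeR). In bulk libraries a change in the number of cells of a type and a change in RNA per cell cannot be told apart. Lymphocyte signal moved with the immune genes of the epithelium, and its part in them was not tested.

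Most gastric genes rose. Of 21 tested genes of gastric mucous and surface cells 16 were called higher and 0 lower, with a median of 7.20, and of 18 genes of chief, parietal and endocrine cells 13 were called higher and 1 lower, with a median of 3.87. The mucous list took 0.00957% to 0.00979% of counts in the wild type, 0.517% to 0.528% with the E13 label and 0.483% to 0.895% with the E10 label. Gkn1, a secreted protein of the stomach surface, was at 0.283 and 0 CPM in the wild type and at 1190 and 1130 CPM with the E13 label (log2 change 12.91 ± 0.95 SE, adjusted p = 4.24e-08 by edgeR). Muc5ac, the surface mucin of the stomach, had 0 counts in the wild type and 577 and 559 CPM with the E13 label, at least 3850-fold higher. It exceeded the 10.7 to 20.5 CPM found with the E10 label. Pgc, the zymogen progastricsin, was at 0.236 and 0.665 CPM against 2160 and 2230 CPM (log2 change 12.27 ± 0.51 SE, adjusted p = 1.92e-12 by edgeR), and likewise exceeded the 51.3 to 69.3 CPM of the E10 group.

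Not all gastric genes reached the levels of the libraries labelled deleted at E10. Tff2, a trefoil peptide of mucous neck cells, was at 1.79 and 2.05 CPM in the wild type, 317 and 312 CPM with the E13 label and 694 to 2000 CPM with the E10 label. Cldn18, the claudin of gastric tight junctions, was at 2.55 and 1.48 CPM, 64.1 and 64.9 CPM, and 1050 to 1230 CPM in that order. Cym, the milk-clotting chymosin of the newborn stomach, went the other way: it was at 103 and 108 CPM in the wild type, 1.73 and 1.87 CPM with the E13 label and 127000 to 200000 CPM with the E10 label. Genes of acid secretion were present too, with Atp4a, the proton pump's catalytic subunit, at 0.331 and 1.13 CPM in the wild type against 339 and 339 CPM (log2 change 8.89 ± 0.78 SE, adjusted p = 1.60e-08 by edgeR). Chia1, an acidic chitinase of chief cells, had 0 counts in the wild type and 126 and 121 CPM with the E13 label, at least 837-fold higher.

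Squamous genes were mostly not called. Of 24 tested 3 were called higher, 1 lower and 20 were not called, and the median was 0.00. Of the 24 members, 11 had 0 counts in both wild-type libraries and 6 in both libraries labelled deleted at E13; they were tested because other groups of the fit hold counts of them, so members without counts in part set the number not called and the median. The gene called lower was Krt7, a keratin of simple and transitional epithelia, at 301 and 283 CPM in the wild type and 68 and 68.8 CPM with the E13 label (log2 change -2.08 ± 0.22 SE, adjusted p = 1.82e-07 by edgeR). Krt5, the keratin of squamous basal cells, was at 0.472 and 0 CPM in the wild type and at 0.0768 and 0.124 CPM with the E13 label, against 29.8 to 166 CPM with the E10 label. Trp63, the basal cell master factor, had at most 1 count in any of the 4 libraries and 7.67 to 20.4 CPM with the E10 label. Sox2, the foregut factor, was at 0.756 and 0 CPM in the wild type and 1.19 and 1.29 CPM with the E13 label, which was not called, and at 49.7 to 68.1 CPM with the E10 label. DESeq2 called Sox2 higher (log2 fold change 1.69, adjusted p = 0.00923), as did the replicate block (adjusted p = 0.0313), and without replicate 1 of the wild type, which held all 16 of its counts there, the fitted value was 8.02. Among the 3 called higher was Serpinb5, a serpin of many surface epithelia, with 0 counts in the wild type and 52.8 and 53.1 CPM with the E13 label.

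Secretory lineages moved by gene more than by list. Goblet cell genes were called higher in 4 of 15 tested and lower in 1, and Paneth cell genes likewise in 4 and 1 of 15, though in 2 and 0 without replicate 1 of the wild type and in 7 and 1 with the replicate block. Muc2, the main intestinal mucin, was at 30.1 and 22.4 CPM in the wild type and 863 and 859 CPM with the E13 label (log2 change 5.05 ± 0.67 SE, adjusted p = 3.55e-06 by edgeR). Zg16, a lectin of goblet granules, was at 99.7 and 83.2 CPM against 2160 and 2030 CPM (log2 change 4.53 ± 1.14 SE, adjusted p = 0.00298 by edgeR). Retnlb, a goblet cell cytokine, was the goblet gene called lower, at 117 and 123 CPM against 0.73 and 1.04 CPM (log2 change -7.07 ± 0.98 SE, adjusted p = 2.93e-05 by edgeR). Lyz1, the Paneth lysozyme, was at 23.3 and 26.9 CPM against 301 and 298 CPM, and at 1390 CPM in both libraries labelled deleted at E15.

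Enteroendocrine genes leaned the other way, with 3 of 23 tested called higher, 9 lower and a median of -1.50. Without replicate 1 of the wild type, or without either library labelled deleted at E13, 5 were called lower, and in a fit of only the libraries compared 5 were called higher. Neurog3, the factor that commits progenitors to this lineage, was at 10.6 and 6.6 CPM in the wild type and at 0.614 and 0.705 CPM with the E13 label (log2 change -3.68 ± 0.62 SE, adjusted p = 7.19e-05 by edgeR). Sct, the hormone secretin, was at 193 and 175 CPM against 17 and 17.3 CPM (log2 change -3.41 ± 0.86 SE, adjusted p = 0.00259 by edgeR). Chga, a protein of the hormone granule, went up from 32.1 and 40.2 CPM to 240 and 245 CPM (log2 change 2.76 ± 0.60 SE, adjusted p = 0.000743 by edgeR), and Gast, the gastrin of the stomach antrum, was at 0.236 and 0.256 CPM against 60.5 and 57.2 CPM. Tuft cell genes were called higher in 4 of 9 tested and lower in 0. Trpm5, the cation channel of tuft cells, had 0 counts in the wild type and 13.9 and 14.8 CPM with the E13 label, at least 97.3-fold higher.

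Genes of crypt stem cells and Wnt signalling split. Of 19 tested 8 were called higher, 3 lower and 8 were not called. Lgr5, the stem cell receptor for R-spondin, was at 35.3 and 23.7 CPM in the wild type and 1.88 and 1.53 CPM with the E13 label (log2 change -4.09 ± 0.37 SE, adjusted p = 2.60e-08 by edgeR), and Ascl2, the stem cell transcription factor, was at 11.6 and 11.8 CPM against 1.61 and 1.82 CPM (log2 change -2.75 ± 0.39 SE, adjusted p = 7.73e-06 by edgeR). The E18 wild type had 5.36 to 6.36 CPM of Lgr5, so this gene was below both wild types in the libraries labelled deleted at E13. Axin2, a feedback target of Wnt, was higher, at 2.88 and 2.41 CPM against 41.5 and 46.6 CPM (log2 change 4.07 ± 0.55 SE, adjusted p = 4.34e-06 by edgeR). Rnf43, which removes Wnt receptors from the surface, was at 24.3 and 36.4 CPM against 177 and 176 CPM (log2 change 2.55 ± 0.22 SE, adjusted p = 1.11e-08 by edgeR).

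Cell cycle genes were lower as a list, with 24 of 30 tested called lower, 1 higher and a median of -1.94. Mcm2, a subunit of the replicative helicase, was at 187 and 175 CPM in the wild type and 24.3 and 23.9 CPM with the E13 label (log2 change -2.89 ± 0.14 SE, adjusted p = 9.28e-12 by edgeR). Ccne1, the cyclin of S phase entry, was at 58.4 and 45 CPM against 3.88 and 4.1 CPM (log2 change -3.68 ± 0.21 SE, adjusted p = 4.26e-11 by edgeR). The 1 gene called higher was Mki67, a protein of dividing cells' chromosomes, at 65.9 and 61.5 CPM against 161 and 155 CPM (log2 change 1.33 ± 0.19 SE, adjusted p = 1.16e-05 by edgeR). The list's share of counts was 0.365% to 0.37% in the E16 wild type, 0.0807% to 0.083% with the E13 label and 0.0854% to 0.0855% in the E18 wild type.

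Most fetal genes fell. Of 12 fetal timing factors, 10 were called lower and 0 higher, with a median of -3.73, and of 14 imprinted growth genes 12 were called lower and 0 higher, with a median of -5.16. Igf2bp3, a fetal RNA-binding protein, was at 221 and 204 CPM in the wild type and 1.19 and 0.829 CPM with the E13 label (log2 change -7.69 ± 0.17 SE, adjusted p = 3.57e-16 by edgeR). Trim71, a target of the let-7 microRNA, was at 17.7 and 21.4 CPM against 0 counts in both libraries, at least 163-fold lower. H19, the imprinted noncoding RNA next to Igf2, was at 977 and 865 CPM against 0.614 and 0.746 CPM (log2 change -10.38 ± 0.25 SE, adjusted p = 4.86e-16 by edgeR). The E18 wild type was also far below the E16 wild type, at 0.0513 to 0.153 CPM of H19 and 4.82 CPM of Igf2bp3 in both libraries. Set against it, the libraries labelled deleted at E13 had less Igf2bp3 (log2 change -2.24 ± 0.17 SE, adjusted p = 1.27e-08 by edgeR) and more H19 (log2 change 2.82 ± 0.51 SE, adjusted p = 0.000369 by edgeR). The E18 wild type held 1 and 2 counts of H19, at the floor, so the size of this H19 change depends on the fit. The libraries labelled deleted at E10, labelled E16 like these, had 1040 to 1260 CPM of H19.

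Markers of other tissues moved with these fetal genes. All but 2 of 19 mesenchyme and muscle markers tested were called lower and none higher, and their summed share of counts was 0.189% to 0.208% in the wild type and 0.00575% to 0.00605% with the E13 label. Acta2, smooth muscle actin, was at 85.8 and 98.1 CPM against 0.307 and 0.497 CPM, and Col1a1, a fibroblast collagen, at 306 and 270 CPM against 2.42 and 3.11 CPM. Blood and endothelial markers were called lower in 9 of 12 tested, nerve and glia markers in 6 of 10, and macrophage and B cell markers in 8 of 14 with 1 higher. Without replicate 2 labelled deleted at E13, 5 blood and endothelial markers were called lower, and without either of the libraries labelled deleted at E13, 5 macrophage and B cell markers. The libraries labelled deleted at E10 had a mesenchyme share of 0.0149% to 0.0208% while Acta2 there was at 77.5 to 128 CPM and the smooth muscle actin Actg2 at 44.1 to 97.9 CPM, against 50.1 and 61.3 CPM of Actg2 in the E16 wild type. The part of non-epithelial RNA in the other lower genes was not tested. Of 8 epithelial markers 1 was called higher, 2 lower and 5 were not called. Krt19, a keratin of simple epithelia, was at 1380 and 1390 CPM in the wild type and 3750 and 3970 CPM with the E13 label (log2 change 1.49 ± 0.21 SE, adjusted p = 7.99e-06 by edgeR). The tight junction protein Cldn4 was at 403 and 436 CPM against 58.1 and 57.9 CPM (log2 change -2.84 ± 0.42 SE, adjusted p = 1.44e-05 by edgeR), and its relative Cldn7 at 1140 and 1160 CPM against 557 and 559 CPM (log2 change -1.03 ± 0.13 SE, adjusted p = 1.19e-06 by edgeR). In a fit of only the libraries compared, 1 was called lower. Epcam, the sort marker, was not called, at 1210 and 1210 CPM in the wild type and 1130 and 1130 CPM with the E13 label.

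Signals between epithelium and mesenchyme gave small lists. Hedgehog and Bmp genes were called higher in 3 of 15 tested and lower in 6, with a median of -0.65. Ihh, the Hedgehog ligand of villus epithelium, was at 149 and 146 CPM in the wild type and 90.4 and 96.4 CPM with the E13 label, under the fold needed for a call. Bmp7, a secreted growth factor, was at 88.4 and 75.8 CPM against 2.65 and 2.32 CPM (log2 change -5.03 ± 0.27 SE, adjusted p = 2.13e-11 by edgeR). Of 14 Notch pathway genes 4 were called lower, 0 higher and 10 were not called. Hes1, the main Notch target, was among those not called, at 42.4 and 49.1 CPM against 31.4 and 32.7 CPM. Of the 13 pancreas and liver genes tested, 3 were called higher and 3 lower, with 1 lower without replicate 2 labelled deleted at E13, 5 with the replicate block and 6 in a fit of only the libraries compared. Cpa1, a carboxypeptidase of pancreatic acinar cells, was at 127 and 98.9 CPM against 7.03 and 7.63 CPM.

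Genes known for their position along the gut, were chosen after their values were seen and are given as levels with no test. Pdx1, the homeobox factor of duodenum and antrum, was at 3.97 and 5.63 CPM in the wild type and 112 and 114 CPM with the E13 label, and the duodenal factor Onecut2 at 20.4 and 15.8 CPM against 469 and 455 CPM. The calcium channel Trpv6 and the calcium-binding S100g, both strongest in duodenum, were at 1.18 and 1.23 CPM against 574 and 567 CPM, and at 113 and 112 CPM against 12700 and 12600 CPM. In the other intestinal groups Trpv6 was at 4.51 CPM or lower, and in E16 hindstomach it was at 18.2 to 20.5 CPM. The iron transporters Slc40a1 and Slc11a2 of the duodenum were at 406 and 392 CPM against 3160 and 3010 CPM, and at 111 and 106 CPM against 856 and 846 CPM.

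Of the distal genes given here, levels were below the wild type with the E13 label except for Slc10a2, and Hoxa9, Slc5a8, Slc10a2 and Fabp6 were low in both groups. The hormone Nts of the distal small intestine was at 10 and 8.8 CPM in the E16 wild type and 0.922 and 0.871 CPM with the E13 label, and Pyy, a distal gut hormone, at 19 and 18.9 CPM against 4.45 and 5.02 CPM. Osr2, a zinc finger factor of the ileum, was at 41.5 and 43.7 CPM in the wild type and had 0 counts in both libraries labelled deleted at E13. Hoxa9 was at 1.13 and 0.409 CPM against 0 counts, and Slc5a8, a transporter of short-chain fatty acids, at 2.55 and 1.69 CPM against 0.0384 and 0 CPM. Slc10a2, the ileal bile acid transporter, was at 1.94 and 1.23 CPM against 3.76 and 3.23 CPM, and Fabp6, its intracellular partner, at 0.472 and 0.768 CPM against 0.346 and 0.249 CPM, both far below the adult ileum at 182 to 183 and 3730 to 3920 CPM. The labels say small intestine for both E16 groups and give no segment, so position and label cannot be told apart.

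**Figure D4:**
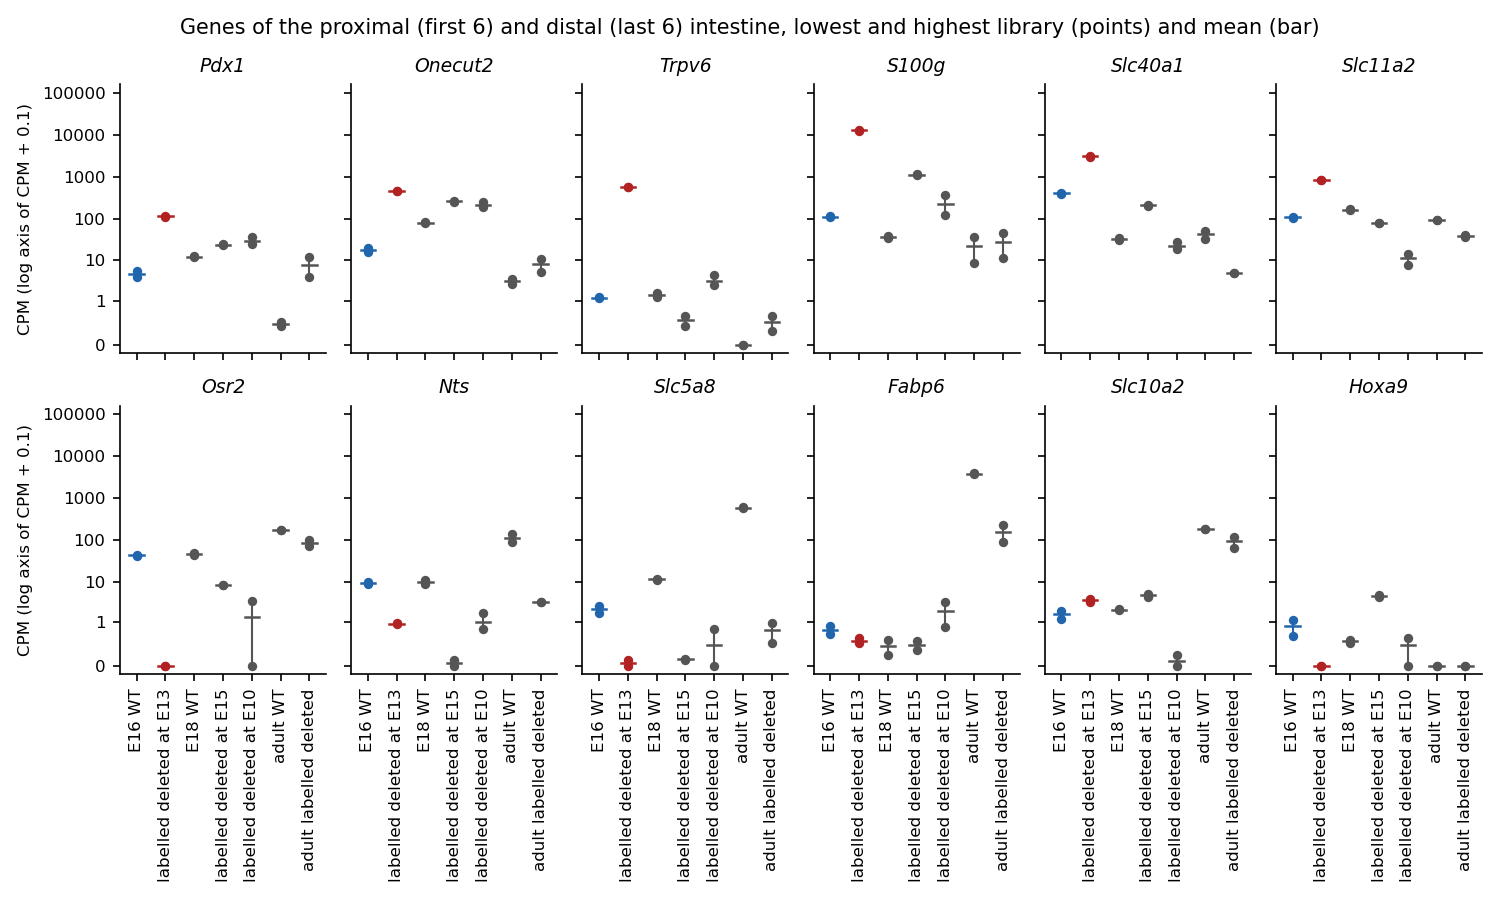
Level in CPM, on a log axis of CPM plus 0.1, of 6 genes of the proximal and 6 of the distal intestine in 7 groups, with the lowest and the highest library as points and the mean as a bar. In the libraries labelled deleted at E13 (red) the 6 proximal genes are above the other groups shown, and Osr2 and Hoxa9 are at 0.

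Set against the E18 wild type, the same libraries gave fewer calls. The E18 libraries already had high Sis and Lct, lymphocyte markers at 0.244% to 0.246% of counts and near-absent H19, and both comparisons use the libraries labelled deleted at E13. Of 17239 genes 2775 (16.1%) were called, 1412 higher (8.19%) and 1363 lower (7.91%), with a median of 0. Of the 3225 genes called higher against the E16 wild type, 2347 (72.8%) were not called against the E18 wild type, 615 (19.1%) were also higher and 263 (8.16%) were lower. Of the 3582 called lower, 2764 (77.2%) were not called, 517 (14.4%) were also lower and 301 (8.4%) were higher.

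By list, the direction turned for digestive genes and held for gastric ones. Brush border hydrolases were called higher in 2 of 19 and lower in 13, with a median of -3.61, and solute transporters higher in 3 of 26 and lower in 13, with a median of -1.14. Gastric mucous genes were called higher in 19 of 21, with a median of 9.17. Cell cycle genes were called higher in 1 of 30 and lower in 1, and lymphocyte markers lower in 13 of 18 and higher in 0. Xenobiotic genes were called higher in 17 of 38 and lower in 8.

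**Figure D5:**
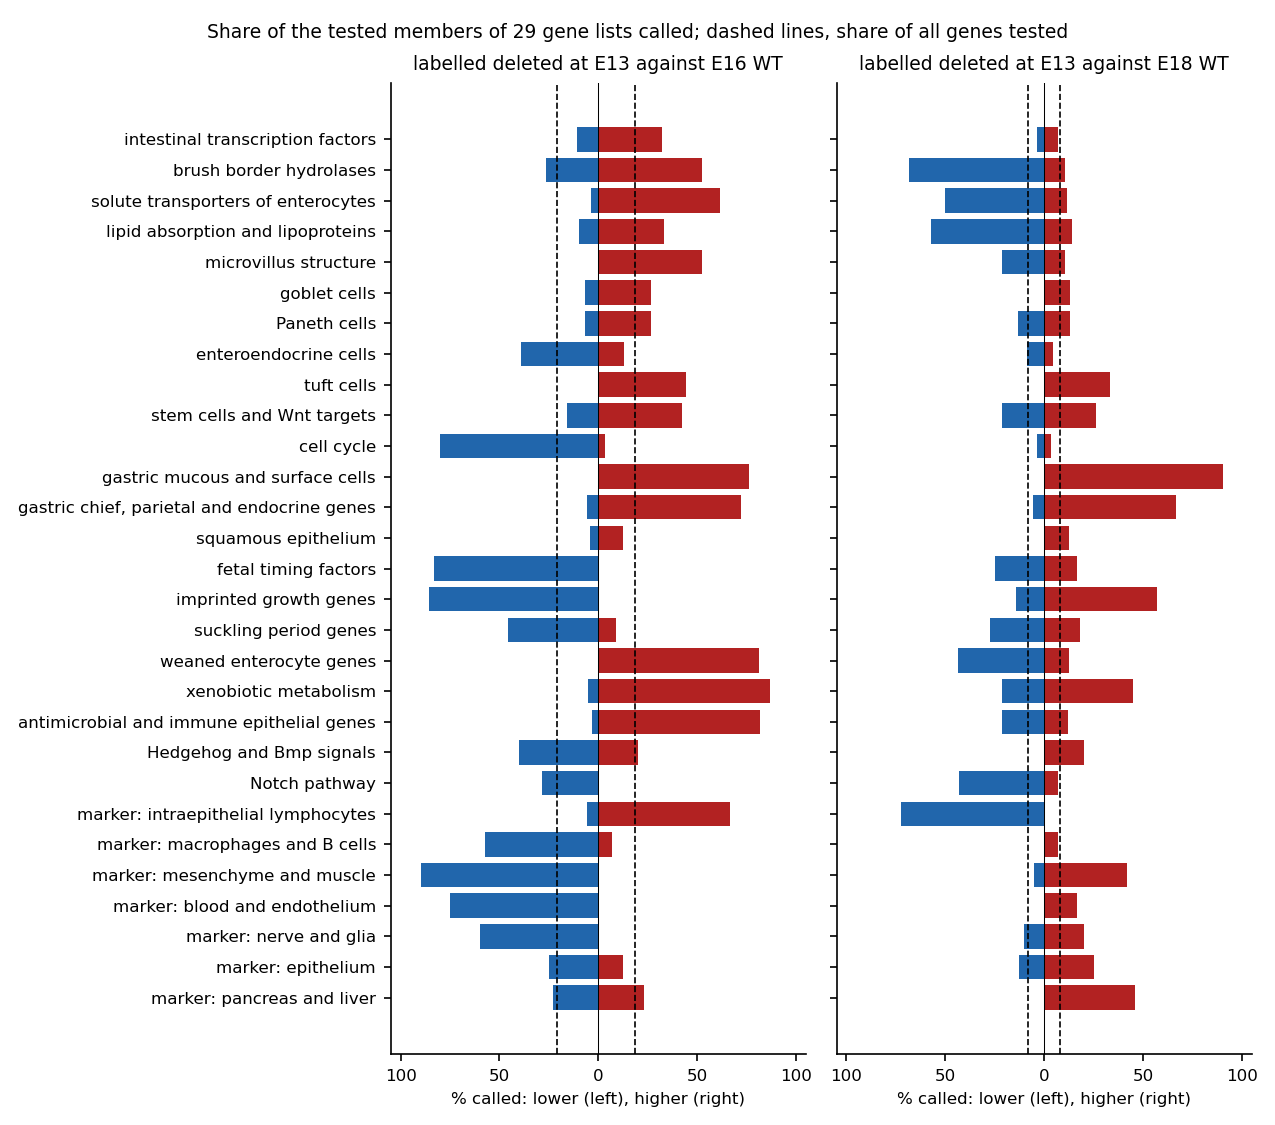
Percent of the tested members of 29 gene lists called higher (red, right) and lower (blue, left) in the libraries labelled deleted at E13, against the E16 wild type on the left and the E18 wild type on the right, with dashed lines at the share of all genes tested. The gastric mucous list is high in both panels and the brush border hydrolase list turns from mostly higher to mostly lower.

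Against the libraries labelled deleted at E10, of the same labelled stage, 9891 of 17239 genes (57.4%) were called, 5045 higher (29.3%) and 4846 lower (28.1%) with the E13 label. This comparison too uses the libraries labelled deleted at E13. Squamous genes were called lower in 20 of 24 and higher in 0, with a median of -7.21, and microvillus genes higher in 19 of 19, with a median of 4.24. Gastric mucous genes divided, with 6 of 21 higher and 9 lower. Cdx2 itself was higher with the E13 label (log2 change 3.45 ± 0.27 SE, adjusted p = 1.62e-09 by edgeR).

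The other tamoxifen comparisons share no library with that of E13 against E16. Small intestine labelled deleted at E15 against the E18 wild type gave 3015 calls (17.5%), 1343 higher (7.79%) and 1672 lower (9.7%). Of these, 326 were higher in both, which is 10.1% of the 3225 and 24.3% of the 1343, and 464 of the 3225 were called in the opposite direction there. In the lower direction 465 were shared, 13% of the 3582 and 27.8% of the 1672, and 495 were opposite. In adult villi, of 12444 genes tested 2544 (20.4%) were called, 1047 higher and 1497 lower, a total that dropped to 1254 and 1562 without replicate 1 and replicate 2 of the adult villi labelled deleted. Over the 12408 genes tested in both, 369 were higher in both, 12.6% of the E13 calls and 35.6% of the adult calls, and 276 were lower in both, 12.9% and 18.5%. Called in the opposite direction in adults were 465 of the 2925 higher with the E13 label, more than were shared, and 215 of the 2135 lower. Over all genes tested in adults 8.41% were called higher and 12% lower, so the shared share of the lower E13 calls was near that background.

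Some lists differed between the E13 comparison and the later ones, which have other wild types. Gastric mucous genes were called higher in 12 of 21 with the E15 label and in 14 of 17 in adults, so this list was higher in all 3 comparisons. Brush border hydrolases, of which 10 were called higher at E13 against E16, were called lower in 16 of 19 with the E15 label and in 13 of 18 in adults. Cell cycle genes were called higher in 20 of 30 with the E15 label and in 1 of 30 in adults. Set against the E18 wild type, the E13 label too had hydrolases called lower in 13 of 19. The cell cycle list held 0.365% to 0.37% of counts in the E16 wild type, 0.0854% to 0.0855% in the E18 wild type and 0.0807% to 0.083% with the E13 label. The part of the different wild types in the following differences was not tested. The difference between the E13 and the E15 log2 fold changes, tested in the same edgeR fit, was called for 6536 of 17239 genes (37.9%), with 3419 (19.8%) above and 3117 (18.1%) below. It was called above for 15 of 19 brush border hydrolases and below for 29 of 30 cell cycle genes, while for gastric mucous genes it was called above in 6, below in 2 and not called in 13 of 21.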

How the data were processed

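The values are raw read counts per gene symbol, which the authors deposited as whole numbers in 1 table with no normalization. The submitters' processing notes name STAR 2.5.3a, HTSeq, Bowtie2, MACS2 and mm9 without saying which served the RNA libraries. The strand setting and the annotation are not given in the sources used here, so reads of overlapping, antisense and near-identical genes may have been merged or split. It lists 24015 symbols, of which 23876 matched RefSeq symbols or synonyms. There are 2 value columns that match no sample used here, and these were not used. Each adult column has 2 blank cells below which its values sit too low, and the blanks were closed up. Their Spearman correlation with the E18 wild type went from 0.28 to 0.295 as deposited to 0.929 to 0.962 closed up between the blanks (1676 genes), and from 0.471 to 0.493 to 0.956 to 0.974 after the second (1730 genes). The 2 unnamed rows at the end hold only the tail of these columns. The chromatin samples (ATAC-seq, ChIP-seq) were not analysed here.

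The test was edgeR 4.0.16 under R 4.3.3 (TMM scaling, filterByExpr with a minimum count of 10, quasi-likelihood fit) over the 27 embryonic libraries in 13 groups, with the 4 adult libraries apart. A gene was called at a Benjamini-Hochberg adjusted p below 0.05, over all genes tested, and a log2 fold change of at least 1. A log2 change is a log2 fold change, its SE is its size over the root of F, and n is 2 libraries per group unless stated. CPM, the field's usual depth-scaled count, used the TMM library sizes over all 31 libraries. A library with 3 counts or fewer of a gene was at the floor, which covers counting error only, since the reads carry no molecular identifiers. Spearman correlations used log2 CPM after adding a prior count of 2.

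The genes compared and the 29 gene lists were chosen with earlier results of these data known. Named genes are fixed key genes, the 3 called members of each list with the largest fold change and non-overlapping groups and an average log2 CPM of 2 or more, and 8 such genes per direction over all genes. Other members of the lists were named to show a role, and the position and sex-linked genes were chosen after their values were seen. On simulated counts, among 16693 genes tested in the E13 comparison, 3 unchanged genes passed the adjusted p alone. Of the changed genes 0 passed with the wrong sign. Alternatives were RLE scaling, DESeq2 1.42.0, other filters, fits of only the libraries compared, leaving out each library, a replicate block, no fold minimum and thinning to equal depth. Some genes of these lists are not reported here by name.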

Additional observations from a re-analysis of the deposited data

Results flagged for a closer look

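The difference between the log2 fold change of E13 label against E16 wild type and that of E15 label against E18 wild type was tested in the same edgeR fit. It was called for 6536 of 17239 genes (37.9%), 19.8% above and 18.1% below. The key genes were chosen with earlier results of these data known. Of 49 key genes 48 could be tested, and 15 lay above in the E13 comparison, 6 lay below and 27 were not called. Strain, tamoxifen and Villin-Cre are labelled alike in both contrasts, but stage and preparation differ, and their part was not tested.

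Among absorptive genes the difference was 8.07 for Sis, 4.86 for Alpi, 4.52 for Slc5a1, 3.74 for Vil1, 1.93 for Fabp2, 1.41 for Lct, 1.08 for Hnf4g and 1.04 for Apoa1, all in log2 units. Sis was at 6.4 to 6.71 CPM in the E16 wild type and 19.8 to 23 CPM with the E13 label, without a call, but at 8540 to 8670 CPM in the E18 wild type and 97.1 to 112 CPM with the E15 label. Lct was called lower against the wild type with both labels, and its positive difference means a smaller fall with the E13 label. The difference was -2.90 for Cdx1, a homeobox factor related to Cdx2.

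Of gastric genes Pgc differed by 5.26 and Muc5ac by 19.74. Muc5ac had 0 counts in both E15-labelled and E16 wild-type libraries, as Cyp3a11, at 22.08, had in the E16 wild type, so the size of these fitted values depends on the prior count and is no bound. Secretory genes differed by 4.65 for Muc2 and 4.23 for Chga.

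Lymphocyte genes differed by 9.14 for Cd3e and 5.67 for Ptprc, the common leukocyte antigen. For Cd3e this set a log2 change of 3.63 with the E13 label against -5.51 with the E15 label, and for Ptprc 0.81, which was not called, against -4.86, so most of both differences lay in the fall with the E15 label. In the lower direction were H19 at -13.6, Igf2 at -7.37, Ass1 at -6.94, Acta2 at -5.88 and Lgr5 at -5.45. Of these, H19 was at 865 to 977 CPM in the E16 wild type but at most 0.153 CPM in the E18 wild type, so the 2 contrasts start from different levels. Acta2 had at most 2 counts in any library of the E18 wild type or the E15 label, and H19 at most 2 in the E18 wild type, so these fitted differences rest on a side at the floor and their size depends on the fit. No group held 4 or more libraries, so single libraries were not screened for outlying values.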

How the results depend on the processing

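The E13 comparison called 6807 genes, and its counts of calls stayed within 1.5 times of it under RLE scaling, both other filters, DESeq2, only the libraries compared, the replicate block, no fold minimum, thinning and leaving out each library (5721 to 6103 without 1 library, 2835 to 2883 higher and 2852 to 3268 lower). RLE scaling moved the median log2 fold change by 0.00 and left 47.4% of the calls in the higher direction. A fit without the E18 wild-type and E15 label libraries, added after seeing the data, called 6456. Replicate numbers do not pair these samples: the deviations of like-numbered libraries correlated at -0.023 over 17239 genes, and the fit with the replicate block called 6784. Of 127 named genes, 4 gained a call and 0 lost one under the block, while DESeq2 took the call from 6 and gave it to 1. Without 1 library, calls in the other comparisons ranged from 1950 to 2027 against the E18 wild type, 8910 to 9889 against the E10 label, 5741 to 6083 for the difference from the E15 label, 2183 to 2373 for the E15 label and 1254 to 2055 in adults. Without replicate 1 of the E16 wild type the uncalled Cdx2 value was -0.02, in a range of -0.02 to 0.13, and that of Krt5, with 10 counts in replicate 1 of the E16 wild type and at most 3 in the other libraries compared, ran from -2.17 to 4.45, the latter without that replicate. Paneth genes called higher numbered 4, with 7 under the block or in the libraries compared alone and 2 with DESeq2. Thinned to the shallowest library compared, the E13 comparison called 6599 genes, and what depth limits among genes of few counts was not tested.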

Other observations

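A few abundant genes outside the lists, chosen after their values were seen, were also far apart. Dmbt1, a secreted scavenger protein of the gut surface, was at 1570 and 1310 CPM in the E16 wild type, 11700 and 11400 CPM in the libraries labelled deleted at E13, and 19600 to 20400 CPM in those labelled deleted at E15. Oat, an enzyme of ornithine metabolism, was at 3120 and 3130 CPM in the E16 wild type and 121 and 127 CPM with the E13 label, with 780 to 792 CPM in the E18 wild type. Aldh1b1, an aldehyde dehydrogenase of gut progenitors, was at 1340 and 1280 CPM against 124 and 130 CPM. By the naming rule over all genes the largest falls included Mcoln3, an ion channel of suckling enterocytes, at 72 and 66 CPM against 0 counts (at least 576-fold lower), and Mptx1, a pentraxin, at 360 and 358 CPM against 0.115 and 0.0415 CPM, at least 3000-fold lower with the libraries at the floor.

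Foxa2, an endoderm factor, was at 2.03 and 1.48 CPM in the E16 wild type, 15.5 and 16.7 CPM with the E13 label and 22.8 to 34.5 CPM with the E10 label. Both deletion labels at E16 were thus above the wild type in this 1 gene. Across 17305 genes the mean Spearman correlation of the libraries labelled deleted at E13 was 0.763 with the E10 label and 0.841 with the E16 wild type.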
